A study of Sus scrofa with 8 samples.

Results

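The genes of CTCF and of the cohesin machinery were examined in pig embryonic fibroblasts (PEFs), to ask whether CTCF occupies its own promoter and the promoters of the proteins it works with. The set held 10 genes, chosen by name, of 28077 RefSeq genes (19487 of them protein-coding) on chromosomes 1 to 18 and X of Sscrofa11.1. These were CTCF itself, the cohesin core subunits RAD21, SMC1A and SMC3, the alternative subunits STAG1 and STAG2, the loader NIPBL, the release factor WAPL, and PDS5A and PDS5B, which bind cohesin and act in both its release and its maintenance. The PEFs were isolated from fetuses of Large White pigs at 35 days and cultured for 24 h, and none of the cells was treated. ChIP-seq (sequencing of the DNA fragments pulled down with an antibody) was performed with ab8580 for H3K4me3, a histone mark of promoters, with ab4729 for H3K27ac, a mark of active promoters and enhancers, and with A1133 (Abclonal) for CTCF. Each antibody was used in 2 replicates, and nothing in the labels says whether the replicates came from separate cultures or fetuses, so their spread may be technical. Peak lists of 6 libraries were used, and the 2 input libraries were not analysed here.

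CTCF is a zinc finger protein that binds a long and directional DNA motif. Cohesin is a ring of SMC1A, SMC3 and RAD21 with STAG1 or STAG2, which NIPBL loads onto chromatin, where it extrudes loops of DNA until it meets CTCF or is released by WAPL. In dividing cells such as fibroblasts, the same ring also holds sister chromatids together. Loops form most often between CTCF sites whose motifs point at each other.

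The lists held 37932 and 43516 H3K4me3 peaks, 74983 and 81164 H3K27ac peaks, and 40289 and 44682 CTCF peaks in replicates 1 and 2. Their strength is given as fold enrichment, the ratio of the ChIP signal to the control at the peak summit, with medians of 9.27 and 6.16 for H3K4me3, 4.84 and 4.75 for H3K27ac, and 19.6 and 19.1 for CTCF. No read counts per peak are given in the lists, so the depth behind each peak is unknown, and a missing peak means that none was called and not that nothing was bound. As a check of the cells, peaks of both histone marks were found at the transcription start sites (TSSs) of all 12 fibroblast markers in both replicates. They were also found at 1 of 4 epithelial markers (CLDN4), 0 of 4 endothelial, 0 of 4 blood, 0 of 3 muscle, 1 of 3 liver (APOA1) and 1 of 3 neuronal markers (SNAP25). H3K4me3 by itself was more widespread, with peaks at 4 of 4 epithelial markers (EPCAM, CDH1, KRT8 and CLDN4), 3 of 3 muscle (MYOD1, MYF5 and ACTA1), 2 of 3 neuronal, 1 of 4 endothelial, 1 of 3 liver and 0 of 4 blood markers.

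A gene was called when a peak lay within 1 kb of its TSS in both replicates. The gene TSS is the outermost 5′ end of the RefSeq gene, and the same rule was then applied to the start of every RefSeq transcript. CTCF lay at the gene TSS of 3 of 10 genes (NIPBL, PDS5A and PDS5B), against 17.9% of all protein-coding genes. With every transcript start it lay at 6 of 10 (also CTCF, STAG1 and STAG2), against 20.8%, or 28.6% among protein-coding genes with 3 or more transcript starts. The 10 genes are not matched to the latter, since RAD21 and SMC3 have 1 start each and STAG2 has 13. RAD21, SMC3 and WAPL had no CTCF peak at any start in either replicate, and SMC1A had one in replicate 2 only. Thus CTCF was found at a start of its own gene, at both STAG genes, at NIPBL and at both PDS5 genes, but was not called in both replicates at any of the 3 core ring subunits or at WAPL. No test was run on these counts, because the genes were chosen by name with earlier results of these data known, and are only 10.

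The CTCF motif, which was learned from 600 CTCF peaks on the 11 chromosomes that hold none of the 10 genes, read as follows, with capitals for letters present in a share of at least 0.7 of the sites.
CTCF motif consensus: tggCCActAGggGGCgcta

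All 7 CTCF peaks of replicate 1 at a start of these 6 genes held a match to this motif within 100 bp of the summit. The sites are shown because they are the binding sequences at the promoters in question. Each is printed 5′ to 3′ on the strand of the motif, with 5 bases on either side, and the 19 bases that match the motif are in capitals (Sscrofa11.1).
CTCF, chr6:28195875-28195903, plus strand: gcgggCCGCCTCTAGGTGTCACGAtgggg
STAG1, chr13:77750587-77750615, minus strand: caccgCGGCCAGCAGAGGGCGGTCcggac
STAG2, chrX:101478108-101478136, plus strand: accctCTGCCGCTAGATGACGCTCcctcc
NIPBL, chr16:22151619-22151647, minus strand: cgcgcCCCCCACTAGGTGTGGGTGgagcc
PDS5A, chr8:31134431-31134459, minus strand: ggcgcCAACCGGATGGTGGCGCTGtctgc
PDS5A, chr8:31133002-31133030, minus strand: ttttcTGACCGATAGAGGCCGGTAgagga
PDS5B, chr11:9014654-9014682, plus strand: ctgtcCGGTCGGCAGGGGGCGCTGcgcac
Of 19 letters, 12 in CTCF, 13 in STAG1, 12 in STAG2, 11 in NIPBL, 10 and 13 in PDS5A and 13 in PDS5B were those of the consensus. The motif was on the sense strand of the gene in 5 of 6 genes and antisense in NIPBL, in both replicates. Among 3334 protein-coding genes with a motif-bearing CTCF peak at a start and the same strand in both replicates, the motif of the strongest such peak was sense in 57%. A match to the motif was found in 88.5% and 87.2% of all CTCF peaks of replicates 1 and 2 on the chromosomes of the 10 genes, and in 10.3% of sequences 1 kb away from the summits.

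The motif was also searched without regard to peaks. At a stricter threshold (1e-05 per position, both strands), a match lay within 1 kb of the gene TSS in 3 of 10 genes (STAG1, PDS5A and PDS5B), against 27.7% of protein-coding genes. In PDS5B the best match was the printed site. In PDS5A it was another one, centred 469 bp after the TSS, which lay inside the wide CTCF peak of replicate 2 but in no peak of replicate 1, and in STAG1 it was centred 441 bp before the TSS, in no CTCF peak. The printed site of PDS5A near the TSS and that of NIPBL did not reach this threshold, and those of CTCF and STAG2 lie further than 1 kb from the gene TSS. At this threshold no match was found around the gene TSS of RAD21, SMC1A, SMC3 or WAPL. Weaker matches do stand there, with best scores (log2 odds against background) of 9.81, 11.9, 12.5 and 9.17. The printed site of NIPBL scored 11.9. At summits, where the threshold was 0.0001 per position, a score of 8.11 in STAG1 counted as a match. The scores at RAD21, SMC1A, SMC3 and WAPL would pass that threshold, but they are the best of a window of 1 kb on either side of the TSS. The printed sites had to lie within 100 bp of a summit. By that narrower search, 10.3% of sequences 1 kb away from the summits also held a match, and a wider window gives more chances of one. Whether these genes lack a CTCF site therefore cannot be told from these scores.

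The CTCF site of STAG2 overlapped the transcript start at 2008 bp, lay before further starts, and is not shown here. For 3 other genes with a CTCF site upstream of a start, the 200 bases that precede that start are shown. The motif is in capitals, on the strand of the gene (Sscrofa11.1, outside every annotated exon).
CTCF, downstream start, chr6:28195853-28196052, plus strand: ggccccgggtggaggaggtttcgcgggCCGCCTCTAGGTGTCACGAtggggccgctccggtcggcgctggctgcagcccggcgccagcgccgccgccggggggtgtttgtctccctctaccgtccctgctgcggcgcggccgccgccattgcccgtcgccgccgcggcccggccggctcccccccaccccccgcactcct
PDS5A, chr8:31134332-31134531, minus strand: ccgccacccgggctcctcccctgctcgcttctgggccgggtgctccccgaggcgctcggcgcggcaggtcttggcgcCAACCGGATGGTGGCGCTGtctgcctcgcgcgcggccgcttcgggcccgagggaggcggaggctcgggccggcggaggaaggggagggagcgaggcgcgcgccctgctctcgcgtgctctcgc
PDS5B, chr11:9014494-9014693, plus strand: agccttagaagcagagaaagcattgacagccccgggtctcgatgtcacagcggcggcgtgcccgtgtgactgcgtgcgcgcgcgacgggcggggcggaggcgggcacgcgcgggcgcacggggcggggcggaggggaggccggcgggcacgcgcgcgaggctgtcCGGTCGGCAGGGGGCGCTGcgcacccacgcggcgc
All 3 stretches are rich in G and C (79.5%, 78.5% and 78%) and hold 29, 30 and 35 CpG dinucleotides. The motif ended 17 bp before the start in PDS5B and 105 bp before it in PDS5A.

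CTCF (chromosome 6, 28188002 to 28261009, plus strand) has 7 RefSeq transcripts with 3 distinct starts, of which 5 transcripts begin at the gene TSS, 1 at 8051 bp and 1 at 46588 bp downstream. No peak of H3K4me3, H3K27ac or CTCF lay within 1 kb of the gene TSS in any library. At the start 8051 bp downstream, H3K4me3 reached fold enrichments of 31.1 and 23.0, H3K27ac 16.0 and 26.6, and CTCF 15.1 and 14.5 in replicates 1 and 2. The CTCF summit was at the same base in both replicates, 150 bp upstream of that start, and it lay inside peaks of both histone marks. So CTCF had a peak at its own gene, at a start that carried the promoter marks, and none was called at the annotated 5′ end. The GC content of the 1000 bp around the gene TSS was 47.2%, with a ratio of observed to expected CpG of 0.226, against 74.3% and 0.943 around the downstream start, while the medians of protein-coding genes were 58.4% and 0.655. The protein-coding gene LOC102161584, on the opposite strand, has transcripts that start 5 and 7 bp upstream of the CTCF gene TSS and others that start 439 to 729 bp beyond the downstream start, and the peaks there cannot be assigned to one of the genes.

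STAG1 (chromosome 13, 77321872 to 77863533, minus strand) and STAG2 (chromosome X, 101476117 to 101617405, plus strand) encode the alternative subunits that contact CTCF and other partners of the ring. Both bore CTCF at an internal start. The CTCF peak of STAG1 had fold enrichments of 35.9 and 45.4, with the summit 49 bp past the start of a transcript that begins 112916 bp into the gene. Around that start H3K4me3 reached 39.4 and 24.8 and H3K27ac 24.9 and 29.8. At the STAG1 gene TSS, both histone marks were stronger in each replicate (58 and 29.5 for H3K4me3, 32.3 and 32.3 for H3K27ac), and no CTCF peak was found there. STAG1 shares that 5′ end with NCK1, an adaptor protein gene that starts 122 bp upstream on the opposite strand.

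The CTCF peak of STAG2 had fold enrichments of 15.9 and 31.3, a spread of 23.6 ± 10.9 (SD, n = 2). Its summit lay 4 and 10 bp from the transcript start at 2008 bp, and its edge 1712 and 1618 bp from the gene TSS. The peak was therefore outside the limit of 1 kb at the gene TSS and inside it at transcript starts. The nearest case on the inner side was NIPBL, whose peak edge was 378 and 315 bp from the gene TSS. STAG2 has 13 distinct starts in its first 3621 bp, which one H3K4me3 peak of 6034 and 7217 bp spanned almost entirely, beginning 481 and 113 bp past the gene TSS. As in CTCF, the sequence at the gene TSS of STAG2 was poor in G and C (29.7%, CpG ratio 0.227), whereas at the start by the CTCF summit it was 62.6% with a CpG ratio of 0.975.

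NIPBL (chromosome 16, 22152455 to 22364373, plus strand) encodes the protein that loads cohesin. Its CTCF peak lay upstream of the gene, with the summit 765 and 754 bp before the TSS and fold enrichments of 25.6 and 33.6. It lay inside an H3K4me3 peak 8492 and 9579 bp wide, which on average was wider than the strongest start peak of 98.4% of the 14039 protein-coding genes with H3K4me3 at a start in both replicates. A further CTCF peak of 38.8 and 39.2 was found 5620 and 5635 bp upstream. Both sites had the motif antisense to the gene.

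PDS5A (chromosome 8, 30988366 to 31134331, minus strand) and PDS5B (chromosome 11, 9014694 to 9223035, plus strand) encode paralogs that sit on the ring beside WAPL. In PDS5A, replicate 1 gave separate CTCF peaks with summits 114 bp before the TSS (fold enrichment of 30.0) and 1312 bp after it (24.8), each with its own sense motif. Replicate 2 gave a single peak of 2290 bp across both sites, with a fold enrichment of 35.7 and its summit 133 bp before the TSS. The second site lay 2 bp from the transcript start at 1314 bp. In PDS5B the summit lay 10 and 12 bp before the TSS, with fold enrichments of 41.5 and 77.5. Its mean (59.5 ± 25.5, SD, n = 2) was above that of 98.8% of the 4052 protein-coding genes with a CTCF peak at a start in both replicates. This annotation types PDS5A as a long non-coding RNA gene with 11 transcripts, whereas the other 9 genes are protein-coding.

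The order of the CTCF fold enrichments at the starts was the same in both replicates, from PDS5B through STAG1, PDS5A, NIPBL and STAG2 down to CTCF. The ranges of the replicates overlapped between PDS5B and STAG1, between PDS5A and NIPBL, and between NIPBL and STAG2. These neighbours kept their order within each replicate, and whether they differ was not tested. CTCF, at 14.8 ± 0.433 (SD, n = 2), was below STAG2 in both replicates, and its mean exceeded that of 38% of the 4052 bound protein-coding genes, whose median was 20. The other means exceeded those of 90.8% (STAG1, 40.6 ± 6.68), 58.9% (STAG2), 73.6% (NIPBL, 29.6 ± 5.65) and 80.3% (PDS5A, 32.8 ± 3.98) of these genes.

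**Figure D1:**
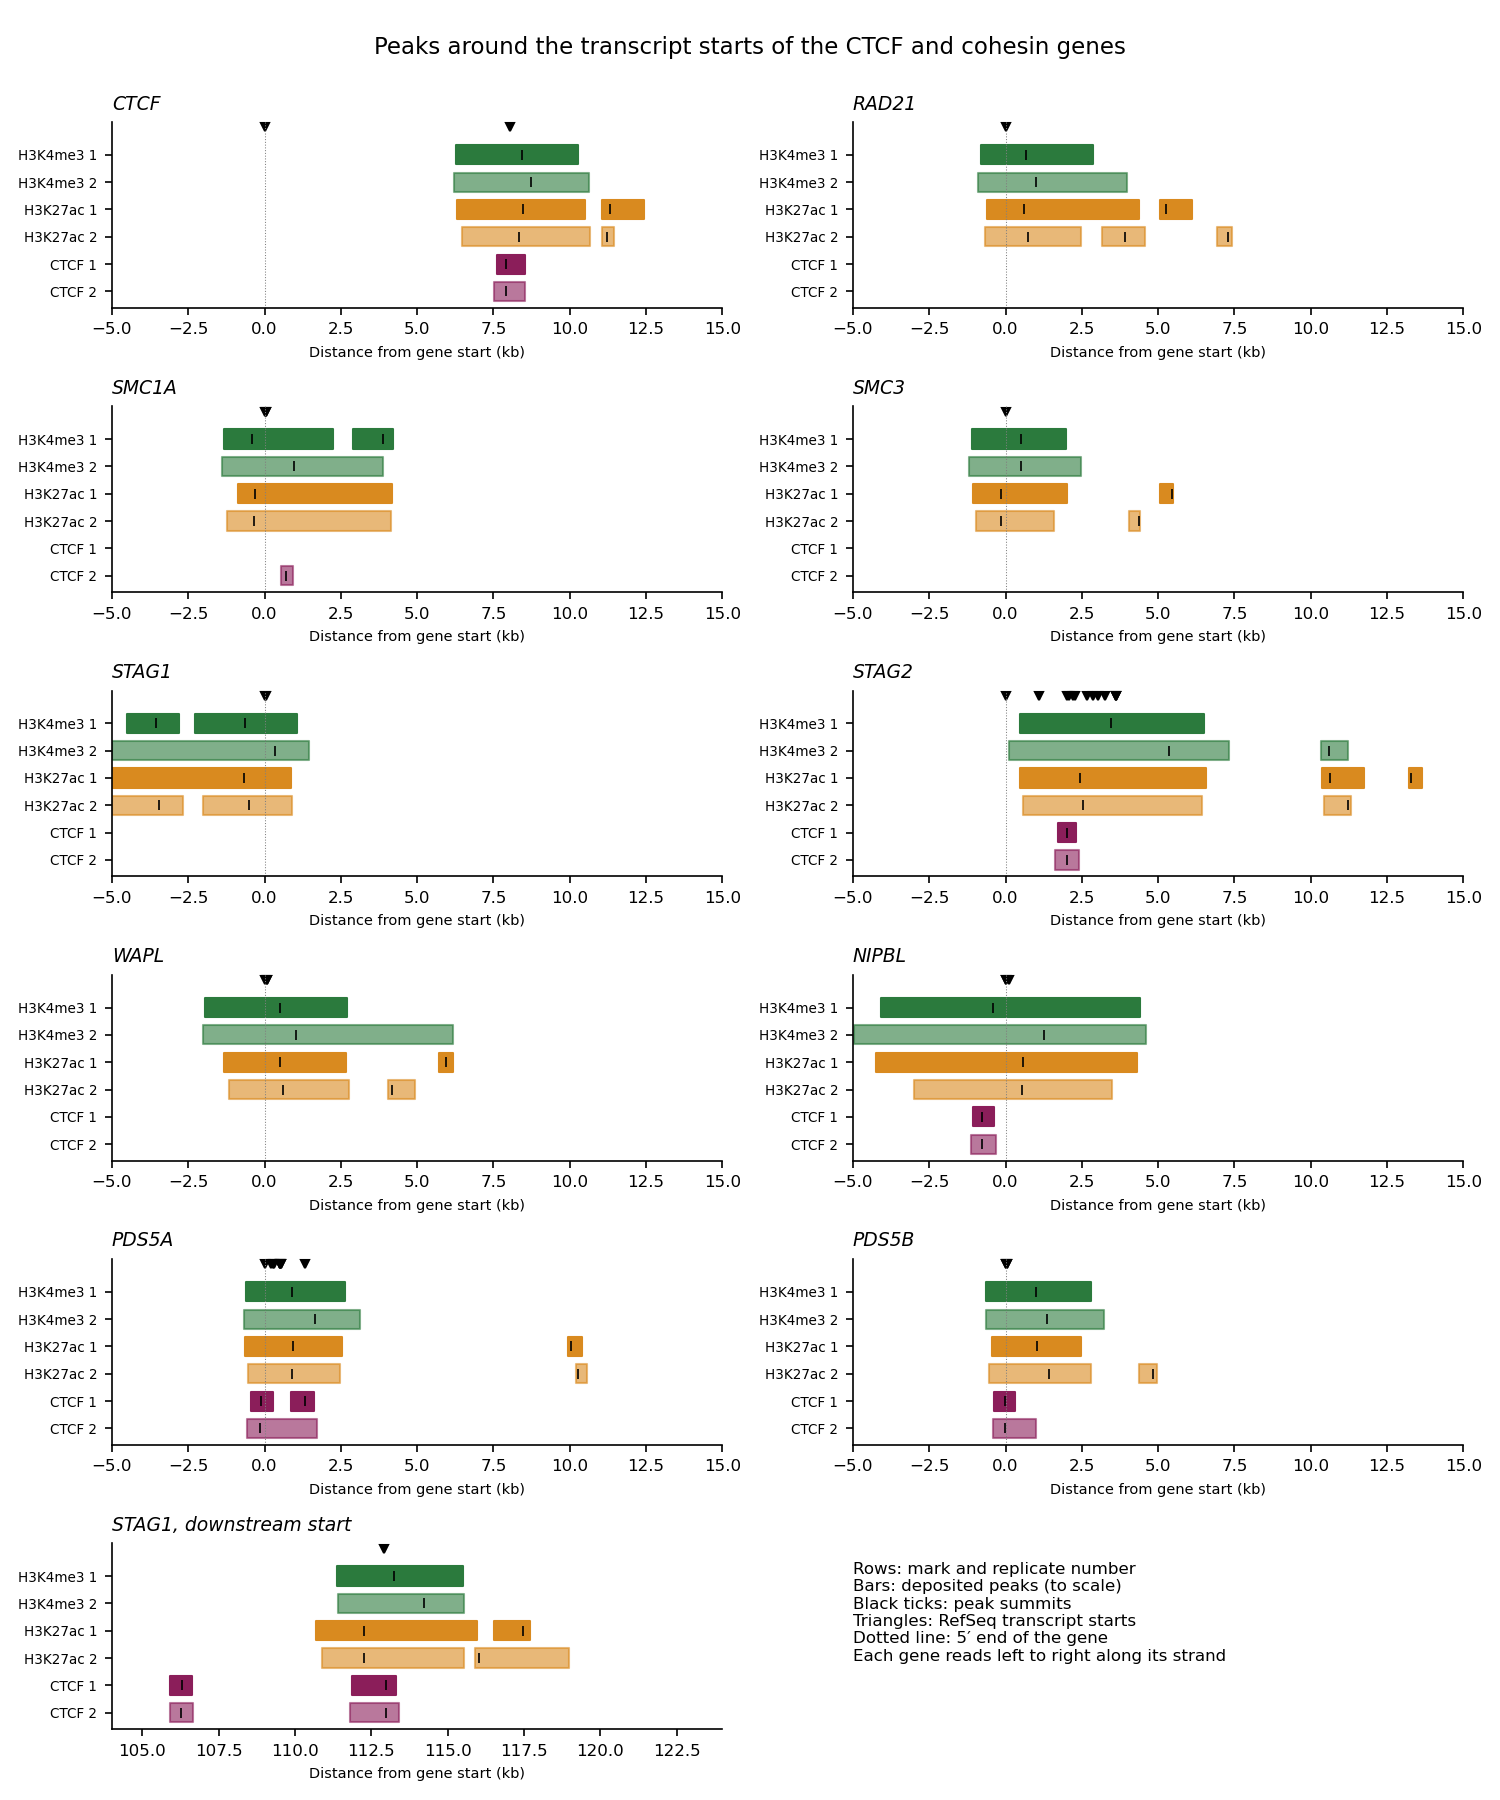
Deposited peaks around the starts of the 10 genes, in kb from the gene TSS along the strand of the gene, with 1 row per mark and replicate, bars for peaks, black ticks for summits and triangles for RefSeq transcript starts. In CTCF, all 3 marks lie at the start 8051 bp downstream and none at the gene TSS. In STAG1, the CTCF peak is at the start 112916 bp downstream, shown in a panel of its own.

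The core ring subunits and WAPL had no CTCF peak called at a start in both replicates, although their starts carried the histone marks. Most marked genes are alike in this, since 27.7% of protein-coding genes with both marks had CTCF at any start. At the gene TSS alone, CTCF, STAG1 and STAG2 were not called either. RAD21 (chromosome 4, 21772821 to 21802453, plus strand), the subunit that separase cleaves at anaphase, had its nearest CTCF summit 11205 and 11230 bp upstream. SMC3 (chromosome 14, 120969629 to 121008924, plus strand) had it 16112 and 16132 bp upstream, and WAPL (chromosome 14, 87492452 to 87588678, minus strand) 42127 and 42147 bp upstream. RAD21 and SMC3 have a single annotated transcript each, so no other start could be examined. In SMC1A (chromosome X, 46143738 to 46202187, minus strand), a peak 718 bp after the TSS was called in replicate 2 alone, with a fold enrichment of 4.86 and a −log10 q-value of 10.5. In replicate 1 the nearest summit was 42406 bp away, so the replicates were not alike at SMC1A. RIBC1, a gene of the opposite strand, starts 26 bp upstream of SMC1A.

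Over all 10 genes, the nearest CTCF summit lay at a median of 8866 and 4268 bp from the gene TSS in replicates 1 and 2, and the medians of protein-coding genes were 10400 and 8772 bp. To the nearest transcript start the medians were 457 and 406 bp for the 10 genes and 9101 and 7635 bp for protein-coding genes. The 10 genes have from 1 (RAD21) to 13 (STAG2) distinct starts, against a median of 1 for protein-coding genes. More starts favour a short distance, and no comparison matched for starts was made. By this distance the 10 genes fell into one group with a summit within 1 kb of a start and another with none within 10 kb, except for SMC1A in replicate 2. Within 5 kb of the gene TSS, 4 of 10 genes had a CTCF peak in both replicates (STAG2 in addition to NIPBL, PDS5A and PDS5B), against 35% of protein-coding genes.

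**Figure D2:**
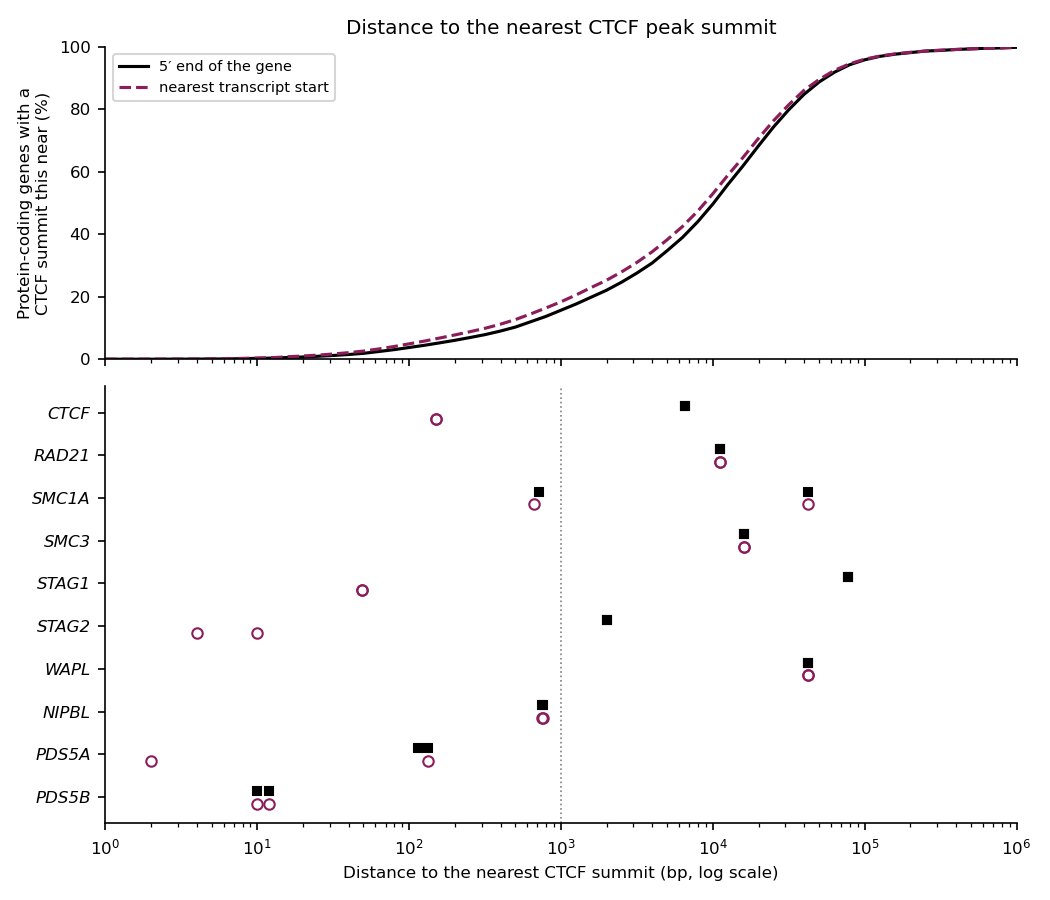
Distance to the nearest CTCF summit on a log scale in bp. The upper panel gives the percentage of protein-coding genes with a summit within each distance (mean of the replicates), from the gene TSS or the nearest transcript start. The lower panel gives both replicates of each gene, with black squares for the gene TSS, open circles for the nearest transcript start and a dotted line at 1 kb. CTCF and STAG1 move from 6527 and 78121 bp to 150 and 49 bp in replicate 1 when transcript starts are used.

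H3K4me3 was found at the gene TSS of 9 of 10 genes in both replicates (68.9% of protein-coding genes) and H3K27ac at the same 9 (60.7%), with CTCF as the exception. With every transcript start, both marks were found at 10 of 10 (72% for H3K4me3 and 63.7% for H3K27ac). Among protein-coding genes with both marks at a start, 23.7% had CTCF at the gene TSS and 27.7% at any start, or 31% where there were 3 or more starts, beside the 3 and 6 of 10 given above. The summits of all 7 pairs of CTCF peaks at starts lay inside H3K4me3 and H3K27ac peaks of both replicates. Of the 4052 protein-coding genes with CTCF at a start, 3347 also had both marks at a start, counted by gene and not by summit. Marks beside CTCF are thus usual and not particular to these genes.

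The replicates of H3K4me3 were far apart in fold enrichment, and replicate 1 was higher than replicate 2 in all 10 genes. RAD21 reached 72.1 and 26.7, SMC3 70.4 and 27, PDS5A 71.1 and 25.3, WAPL 67.7 and 22.9, NIPBL 54.7 and 41, and PDS5B 48.1 and 27.8. The lowest means were those of the X-linked genes SMC1A (22.0 and 15.3) and STAG2 (33.5 and 12.5), followed by CTCF. The means of SMC1A and STAG2 were above those of 11.6% and 16.3% of protein-coding genes with the mark. The medians of X-linked protein-coding genes with the mark were 30 and 15.3, and those of autosomal genes 53.1 and 25.9. The widths of the strongest H3K4me3 peaks, which ran from 3080 bp (SMC3, replicate 1) to 9579 bp (NIPBL, replicate 2), were on average over the replicates above those of at least 64% of the protein-coding genes in every one of the 10.

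H3K27ac was more alike between replicates. SMC3 was highest in both, with 34.2 and 42.5. WAPL (32.2 and 39.0), RAD21 (28.2 and 34.4), NIPBL (29.1 and 34), STAG1 (32.3 and 32.3) and PDS5A (25.9 and 27.5) were also above the median of 18.2 of protein-coding genes with the mark. SMC1A was lowest in both, with 8.04 and 7.96, above 13.1% of these genes, followed by PDS5B with 15.6 and 15.5. The means of the genes with CTCF at a start in both replicates were above 61.4% (CTCF), 89.6% (STAG1), 57.3% (STAG2), 88.3% (NIPBL), 78.5% (PDS5A) and 38.9% (PDS5B) of the genes with H3K27ac. Those of the genes without were above 87.8% (RAD21), 96.3% (SMC3), 94% (WAPL) and the 13.1% of SMC1A, so the ranges of these groups overlapped.

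**Figure D3:**
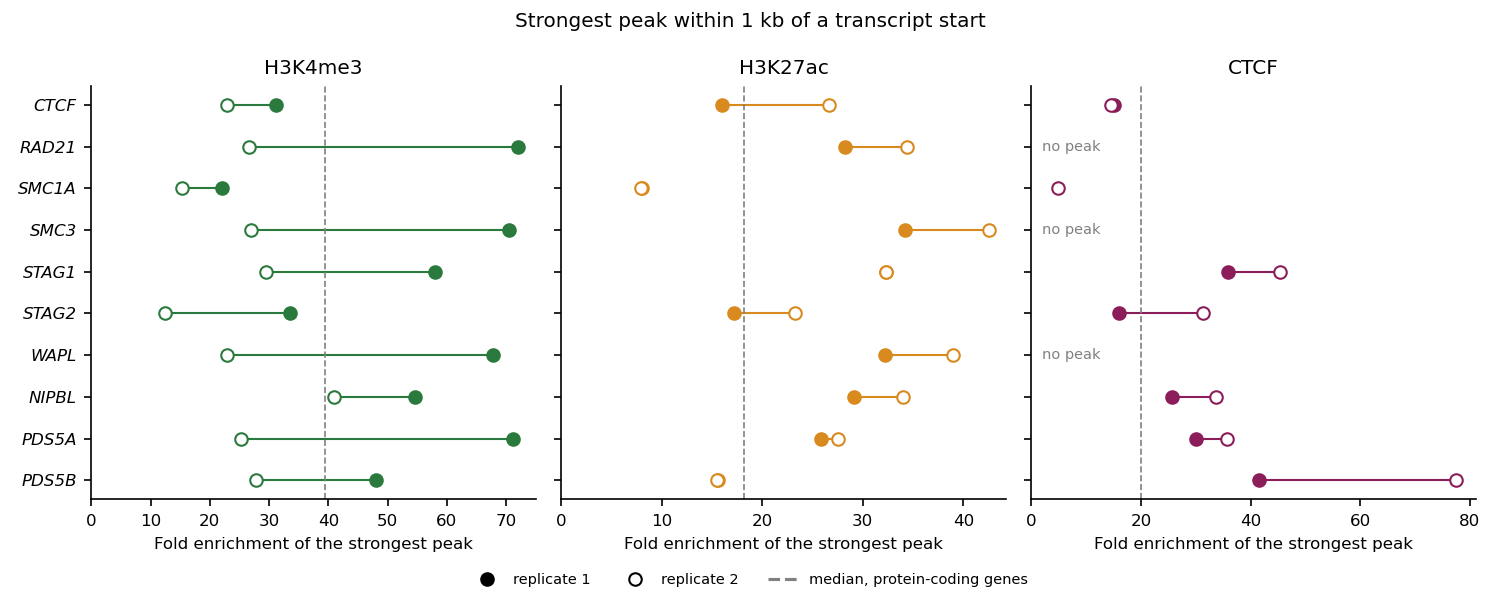
Fold enrichment of the strongest peak within 1 kb of a transcript start, by gene and mark. Filled circles are replicate 1, open circles replicate 2, and dashed lines the median of protein-coding genes with the mark in both replicates (39.5, 18.2 and 20). CTCF peaks are missing at RAD21, SMC3 and WAPL and are found in replicate 2 only at SMC1A.

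Beyond the starts, CTCF was found in the bodies of most of these long genes. The genes had a median length of 118758 bp, against 20695 bp for protein-coding genes. A CTCF summit inside the gene and over 1 kb from the gene TSS was present in both replicates in 8 of 10 genes, against 42.8% of protein-coding genes, or 71.8% of those at least as long as the shortest of the 10 (RAD21, 29633 bp). In the CTCF gene, the peak at its downstream start was the only one. WAPL had none in either replicate, and PDS5A had only its second start peak, in replicate 1. The bodies held 25 and 25 CTCF summits, or 1.62 and 1.62 per 100 kb, and the density over protein-coding genes was 1.66 and 1.84. SMC3 was densest, with 5.09 per 100 kb in each replicate, from 2 peaks in a gene of 39296 bp. The flanks of 50 kb held 24 and 23 CTCF summits, a mean of 2.4 and 2.3 per gene, against 2.95 and 3.19 for protein-coding genes. STAG1 and STAG2 had no CTCF peak in either flank.

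In all, 51 pairs of overlapping CTCF peaks were found in and around the genes, 1 peak was found in replicate 1 only and 3 in replicate 2 only. Among the pairs, 2 peaks of replicate 1 overlapped the same peak of replicate 2 in SMC3 and in PDS5A, so the pairs held 49 distinct peaks of replicate 2. The motif was found in both peaks of 49 pairs, on the same strand in all 49. The pairs without a motif were weak and lay in introns, at 28266 bp in SMC3 (5.55 and 5.56) and at 429118 bp in STAG1 (3.96 and 3.50). Of the 44 pairs away from a start, 1 had the summits of both peaks inside H3K4me3 peaks of both replicates and 4 had them inside H3K27ac peaks of both.

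Inside the genes and over 1 kb from any start, the motif was mostly antisense. Of the 19 motif-bearing peaks of replicate 1, 16 were antisense, and of 20 in replicate 2, 17 were. In protein-coding genes, 51.6% and 51.9% of such peaks were antisense. PDS5B contributed 5 of 5 antisense peaks, STAG1 4 of 5 in replicate 1 and 5 of 6 in replicate 2, SMC1A 2 of 2, STAG2 2 of 3, NIPBL 1 of 2, and RAD21 and SMC3 1 of 1 each. Sites of one gene are not independent, the direction was seen only after the values were known, and no test was run on it. The strongest were those of PDS5B at 56904 bp (49.0 and 55.9), STAG1 at 500319 bp (50.1 and 51.9) and SMC3 at 33330 bp (43.3 and 39.6), all in introns. In PDS5B, every one of these sites therefore faced the sense site at the promoter. These strong intron sites are shown as they are on the antisense strand of their genes, with the motif in capitals (Sscrofa11.1).
PDS5B, chr11:9071605-9071633, minus strand: tcttaCAACCAGCAGATGGTGCCCtccat
STAG1, chr13:77363200-77363228, plus strand: caggaCCAGCACTAGGGGGCACCGgagca
SMC3, chr14:121002945-121002973, minus strand: aatatTGTACACTAGGTGGCAGTGctata

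**Figure D4:**
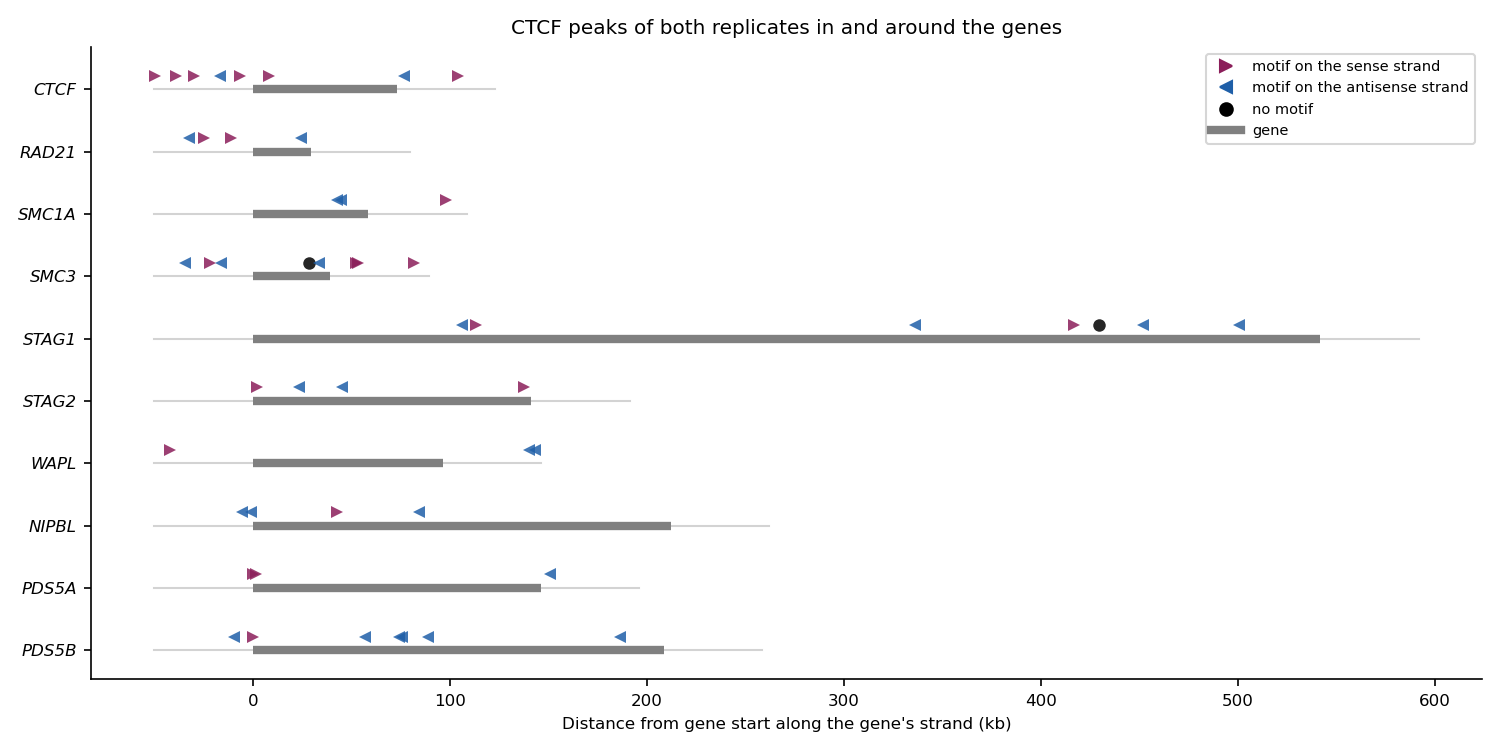
CTCF peaks found in both replicates in and within 50 kb of the genes, in kb from the gene TSS along the strand of the gene. Grey bars are genes, triangles point along the motif (right for sense, left for antisense) and dots are peaks without a motif, at the summits of replicate 1. All 5 sites inside PDS5B point back to the promoter, and WAPL has none inside the gene.

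The nearest motif-bearing CTCF peaks outside each gene were compared, since facing motifs are the arrangement in which loops are most often seen. They faced the gene from both sides in both replicates in 3 of 10 genes (CTCF, WAPL and PDS5A), against 24.7% of protein-coding genes. They pointed away from SMC3, STAG2 and NIPBL, and lay on one strand at SMC1A, STAG1 and PDS5B. RAD21 had facing motifs in replicate 1 only. Around CTCF the motifs lay 6500 bp before and 3857 bp after the gene. WAPL lay between sites 42141 bp upstream (51.6 and 62.1) and 43816 bp downstream (36.8 and 48.9) with none between them. At PDS5A, NIPBL and PDS5B, the upstream site was the gene's own promoter site, 105, 813 and 17 bp before the gene. No contact data were used, so nothing is known here of loops between these sites.

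H3K27ac summits were frequent inside the genes, with 66 and 62 over 1 kb from the gene TSS, or 4.27 and 4.01 per 100 kb against 3.53 and 3.91 over protein-coding genes. All 10 genes had at least 1 in each replicate, and STAG1, the longest gene, had 24 and 24. The share of protein-coding genes with at least 1 was not computed. Long genes such as these are more likely to hold one, so the count is not a trait of the 10 genes. Most were weak. Apart from the starts described above, the strongest inside a gene was in an intron of STAG1, 78721 and 78584 bp from the TSS (24.4 and 18.6), followed by one in PDS5B at 41584 and 41573 bp (11.7 and 11.2) and one in PDS5A at 139134 and 139183 bp (10.4 and 10.9). H3K4me3 summits were fewer, with 11 and 17, or 0.712 and 1.1 per 100 kb against 1.35 and 1.69. These counts include peaks that cover a transcript start but have their summit over 1 kb from the gene TSS. Such peaks were found in CTCF, STAG1, STAG2 and PDS5B in both replicates, and in WAPL, NIPBL and PDS5A in replicate 2.

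Other genes of the pathway were taken as lists. Of 34 genes, 28 had H3K4me3 and 28 H3K27ac at the gene TSS in both replicates, and 5 had CTCF, beside 68.9%, 60.7% and 17.9% of protein-coding genes. Among the 10 genes for cohesin loading, acetylation, release and cleavage, 9 had both marks and 2 had CTCF, namely ESCO2, an acetyltransferase of SMC3 (30.1 and 26.4), and SGO1, which protects centromeric cohesin (19.8 and 32.8). DDX11, a helicase needed for cohesion, had the marks at another transcript start only. Of the 5 germline paralogs, STAG3 had both marks, SMC1B, RAD21L1, REC8 and CTCFL had neither, and 0 had CTCF. Of 12 condensin and SMC5/6 genes, 11 had both marks. The exception was NCAPG, a condensin subunit, which was also the 1 with CTCF (12.6 and 17.6). All 7 genes of other DNA-binding or boundary factors had both marks, and 2 had CTCF, the zinc finger gene MAZ (20 and 15.8) and ADNP (35.9 and 46.2).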

How the data were processed

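ChIP-seq peak lists of PEFs were used as deposited, 1 per library (H3K4me3, H3K27ac and CTCF, 2 replicates each). The authors mapped reads with bowtie2, kept uniquely mapped fragments with a mapping quality above 5, used Picard against duplicates, and ran MACS2 in its narrow mode on each library. Tool versions are not given in the sources used here. The submitters' processing notes name Sscrofa11.1, Bowtie2 and MACS2. In the deposited lists each peak has a fold enrichment (a ratio to the control), −log10 p- and q-values and a summit offset, and the deposited score was not used. The methods state a q-value of 0.01, but 0.056% to 3.06% of the peaks per library had a higher one, up to 0.0499. Read counts were not used, so the depth behind a peak is unknown, and no interval or test was computed.

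Peaks on chromosomes 1 to 18 and X were set against the RefSeq genes of Sscrofa11.1, from which all sequences were read. At a start, any part of a peak within 1 kb counted. In bodies and flanks, summits counted. Peaks of replicates were paired by an overlap of at least 1 bp. A motif of 19 bp was fitted (expectation maximisation) to 600 peaks of replicate 1, using 50 bp on either side of each summit, and searched within 100 bp of each summit at 0.0001 per position. Start matching, summit counting and the motif search were tested on simulated data. Python 3.11.15, numpy 2.4.6, pandas 2.3.3, pysam 0.24.0 and matplotlib 3.10.9 were used. The 10 genes, the lists and the alternatives were chosen with earlier results of these data known. All 10 genes were named, and a gene of a list was named where 5 or fewer of its list stood on its side of a call. The comparisons of motif strand, of genes with both marks and of X-linked genes, and the stricter motif search around TSSs, were added after values were seen.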

Additional observations from a re-analysis of the deposited data

How the results depend on the processing

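Of 52 values from alternative settings for 9 results, 45 were within 1.5 times (counts) or 1 SD (percentages) of the value reported. With summits in place of peak edges, H3K4me3 was called at the TSS of 4 genes and not 9. The summits of the others lay over 1 kb from the TSS in at least 1 replicate. No share of protein-coding genes by this rule is given here for H3K4me3. CTCF was called at 3 gene TSSs, at 6 with every transcript start, and at 1 (NIPBL) when the peaks of both replicates had to overlap by at least 50% of both. By the last rule PDS5A and PDS5B, whose peaks were wider in replicate 2, were lost. Leaving out each replicate in turn gave 3 to 4 genes, SMC1A being the one gained without replicate 1. Among protein-coding genes the share with CTCF was 17.9%, and 17% when the peaks had to overlap by at least 50% of both. It was 35% with a distance of 5 kb, 20.8% with every transcript start, and 18.4% to 22.5% with a single replicate. With a −log10 q-value of at least 5, a mean of 37 H3K27ac summits was left in the gene bodies, against 64. No paired analysis was possible because no result came from a test. Only peak lists were used, so whether an uncalled site is unbound cannot be told.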

Other observations

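Downstream of WAPL, the gene with no CTCF peak inside it, 2 strong CTCF peaks had their summits 140047 bp (36.8 and 48.9) and 143336 bp (43.2 and 45.9) from the TSS in replicate 1. Their motifs, both antisense to the gene, lay 3284 bp apart. The motifs had 17 of 19 bases in common, the 59 bases centred on the motif 50 (84.7%), and the 219 bases centred on it 98 (44.7%). They are shown because their sequences are nearly the same, with the motif in capitals (Sscrofa11.1).
WAPL, chr14:87448613-87448641, plus strand: tcataTGGCCACCAGAGAGCGGTGtttac
WAPL, chr14:87445329-87445357, plus strand: tcataTGGCCACCAGATGGCGGTGtttaa
How reads were placed between such similar sites was not tested, and uniquely mapped fragments only were kept by the authors.

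The regions around the genes differed in how crowded they were. In the 50 kb on either side of RAD21 no other RefSeq gene was found and no histone mark peak in either replicate, but 3 and 4 CTCF peaks. The CTCF gene shared its flanks with parts of 8 other genes, with 10 and 11 H3K27ac, 6 and 7 H3K4me3 and 8 and 7 CTCF peaks. A CTCF peak there, with its summits 16841 and 16825 bp upstream inside RIPOR1, made up the 1 pair away from a start of the 10 genes whose summits lay inside H3K4me3 peaks of both replicates.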
